A study of Mus musculus with 9 samples.

Results

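The 10 genes described here encode chains of cytokine receptors, and their transcripts were measured by RNA sequencing in 9 mouse macrophage libraries. They are the IL-10 receptor genes Il10ra and Il10rb, the IL-4 and IL-13 receptor genes Il4ra, Il13ra1 and Il2rg, the IL-6 receptor genes Il6ra and Il6st, the IL-1 decoy receptor gene Il1r2, and the interferon receptor genes Ifngr1 and Ifnar1. The set was chosen by gene name, with earlier results of these data known, and makes up 10 of the 53465 genes in the count table. All 10 were among the 12610 genes that passed the filter on low counts.

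The study compared synovial macrophages from joint tissue with cultured macrophages, in 3 groups of 3 libraries. Lining libraries A, B and C came from CD45+CD11b+F4/80+GFP+ cells and interstitial libraries D, E and F from CD45+CD11b+F4/80+GFP- cells, all sorted by flow cytometry from the hind paws of Cx3cr1-GFP mice that were healthy, in which green fluorescent protein reports the fractalkine receptor gene Cx3cr1. Libraries G, H and I came from bone marrow-derived macrophages (BMDM), a standard culture model in which C57BL/6 marrow cells matured for 5 days in MCSF-conditioned medium. The cultured cells therefore differ from the sorted cells in mouse strain or line (Cx3cr1-GFP against C57BL/6), tissue, culture and flow sorting. These cannot be told apart in any comparison with BMDM. No age or sex of the mice, and no copy number of the reporter allele, is given in the labels. The labels do not say whether the libraries of a group came from separate animals, so a p-value measures the spread between these libraries only.

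Levels are given in CPM, a gene's counts relative to its library's total after TMM scaling, and the same gene is compared between libraries on that scale. Levels of different genes are compared as RPKM, which is CPM divided by the summed exon length in kilobases. Errors of log2 fold changes are standard errors (SE), and errors of CPM and of ratios are SDs over 3 libraries. Totals ran from 2194920 counts in lining A to 22499823 in BMDM G, and the sorted libraries (2194920 to 11137451) were shallower than the BMDM libraries (19427273 to 22499823). Cx3cr1, the gene behind the sort, was at 662 to 774 CPM in the lining libraries, 2.66 to 7.84 in the interstitial libraries and 236 to 311 in BMDM, which fits the GFP gates. None of the 10 macrophage markers, among them Adgre1, Csf1r and Itgam, was at 0 in any library. In these bulk libraries fewer cells of a type and less RNA per cell cannot be told apart, and receptor protein was not measured.

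Cytokine receptors of these families have no kinase of their own. Ligand binding brings a ligand-specific chain together with a shared or partner chain, and the Janus kinases bound to their tails then phosphorylate STAT transcription factors. In macrophages the IL-10 and IL-6 receptors act mainly through STAT3, the IL-4 and IL-13 receptors through STAT6, and the type I interferon receptor through a complex of transcription factors called ISGF3. IL-1 receptors signal through MyD88 instead, and the type 2 receptor binds IL-1 without signalling.

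Most of the 10 chains were more abundant in the sorted synovial macrophages than in BMDM, and Il2rg went the other way. Against BMDM, 8 of 10 chains were higher in lining macrophages and none was lower, where 23.1% of all tested genes were higher and 20.5% lower (edgeR's quasi-likelihood test, Benjamini-Hochberg adjusted p under 0.05). In interstitial macrophages 8 of 10 were higher than in BMDM and 1, Il2rg, was lower, where 23.4% of all tested genes were higher and 21.3% lower. Between the synovial populations 3 chains (Il10ra, Il10rb and Il4ra) were higher in the lining and 1 (Il6st) was lower, where 3.74% of tested genes were higher and 2.05% lower. The median log2 fold change of the 10 chains was 1.57 for lining against BMDM, 1.57 for interstitial against BMDM and 0.35 for lining against interstitial. The medians over all tested genes in these comparisons were 0.00014, -0.01 and -0.01. The comparisons share libraries, so they are not independent of each other. The chains were chosen with earlier results of these data known, so their counts beside these shares are a description and no test of the set. Markers of other cells were also higher in the sorted libraries than in BMDM. The 8 fibroblast markers summed to 170 to 303 CPM in lining, 190 to 692 in interstitial and 2.07 to 2.88 in BMDM libraries, and all 8 were called higher than BMDM in both sorted groups, with Lum and Thy1 at 0 in interstitial D. The 6 B cell markers summed to 66.5 to 96.3, 136 to 379 and 21.4 to 21.9 CPM, with Pax5 at 0 in every library other than lining B and interstitial E. This B cell sum was mostly Ighm (mean 73.2, 233 and 20.6 CPM in lining, interstitial and BMDM libraries). The part of these cells in the receptor chain differences was not tested.

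The libraries of lining and interstitial macrophages did not overlap in CPM for 6 of 10 chains, where 18.6% of tested genes did not overlap. For lining against BMDM 9 of 10 chains did not overlap, with a background of 63.1%, and for interstitial against BMDM 8 of 10, with a background of 62.2%. The summed CPM of the 10 chains was 2241 to 2297 in the lining libraries, 1785 to 2005 in the interstitial libraries and 758 to 770 in BMDM.

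**Figure D1:**
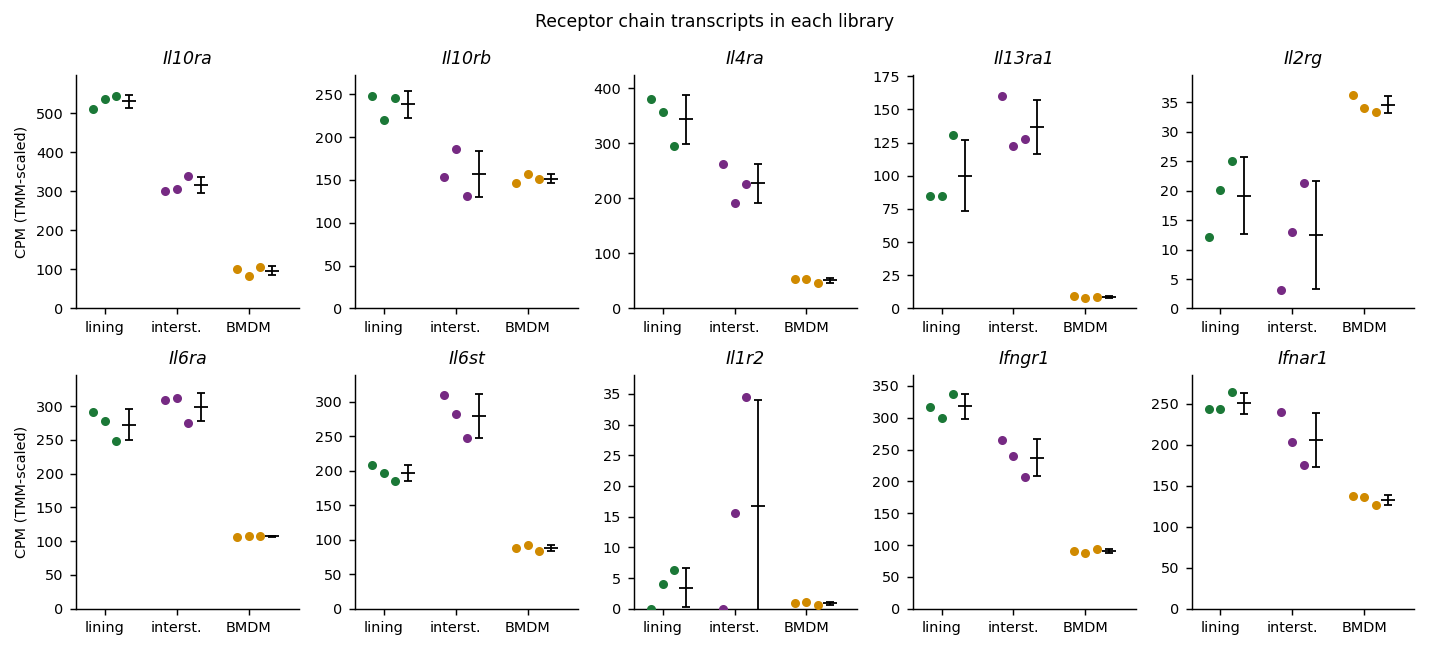
CPM (linear axis from 0) of each receptor chain in each library, with lining, interstitial and BMDM libraries in order A to I from left to right; the horizontal mark and bar are the mean and SD of 3 libraries, and the bar of Il1r2 in interstitial macrophages is clipped at 0. Il10ra lies at 512 to 544 CPM in lining, 301 to 339 in interstitial and 83.9 to 107 in BMDM libraries, and Il2rg is the chain whose BMDM libraries, at 33.4 to 36.2 CPM, lie above all sorted libraries.

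The IL-4 and IL-13 receptors are built from 3 of these chains, whose order of abundance differed between sorted and cultured cells. Il4ra encodes the IL-4-binding chain. It pairs with the common gamma chain, encoded by Il2rg, in the type I receptor for IL-4, and with Il13ra1 in the type II receptor for IL-4 and IL-13. The stretches upstream of their start sites are printed below because these chains differ in level between the groups; they come from RefSeq (GRCm38.p6), run 5′ to 3′ on the strand of the gene, and hold only bases before any annotated exon. Il4ra is shown at chr7:125552021-125552119 (plus strand), Il13ra1 at chrX:36111858-36112107 (plus strand) and Il2rg at chrX:101268256-101268505 (minus strand). No capitals are used, since none of the motifs searched (given later) was found in these 3 windows.
Il4ra: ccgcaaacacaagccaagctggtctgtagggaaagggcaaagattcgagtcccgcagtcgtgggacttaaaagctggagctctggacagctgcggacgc
Il13ra1: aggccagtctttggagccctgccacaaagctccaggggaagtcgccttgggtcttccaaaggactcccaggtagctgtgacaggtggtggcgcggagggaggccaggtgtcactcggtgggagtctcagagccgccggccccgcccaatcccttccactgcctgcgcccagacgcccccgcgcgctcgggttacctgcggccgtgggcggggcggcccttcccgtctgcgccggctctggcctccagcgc
Il2rg: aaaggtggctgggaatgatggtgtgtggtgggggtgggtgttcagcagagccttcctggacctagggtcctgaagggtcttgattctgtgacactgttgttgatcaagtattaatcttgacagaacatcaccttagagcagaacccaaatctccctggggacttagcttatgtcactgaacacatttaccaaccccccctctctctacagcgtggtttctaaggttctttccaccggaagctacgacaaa

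The share of G and C over the 250 bases before the start was 59.6% for Il4ra, 70.8% for Il13ra1 and 49.2% for Il2rg, beside a median of 52.4% over all 32851 promoters in the table. The 250 bases of Il4ra reach annotated exon bases after the 99 printed, so its share is not one of upstream bases only. The window of Il6ra has 0 bases before an annotated exon. Promoters were found for 8 of the 10 chains. The 250 bases were searched on both strands for TTCNNNGAA (a STAT site, held by 7.02% of all promoters), TTCNNNNGAA (a STAT6 site, 5.85%), GAAANNGAAA (the core of an interferon-stimulated response element, 2.98%), GAGGAAGT (a PU.1 core, 2.44%), TTGCNNAA (a C/EBP site, 9.56%) and TATAAA (12.4%). The only match in the 8 windows was TTCAAGGAA in the window of Il1r2, from position -111 to -103 relative to the transcript start that the table uses, and it overlapped no other motif searched. That start lies inside the annotated Il1r2 gene, and the window holds annotated exon bases, so the match is not upstream of the gene. A match or its absence describes letters in this window and says nothing of binding.

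Il4ra (ENSMUSG00000030748, GRCm38 chr7:125552120-125579474, plus strand) was at 380, 357 and 295 CPM in lining libraries A, B and C, at 263, 193 and 227 in interstitial libraries D, E and F, and at 53.6, 54.3 and 45.8 in BMDM libraries G, H and I. Every sorted library was above every BMDM library, and the lowest lining library was above the highest interstitial library. Il4ra was 6.71-fold higher in lining macrophages than in BMDM (log2 fold change 2.75 ± 0.16 SE, adjusted p = 9.47e-08) and 4.44-fold higher in interstitial macrophages (2.15 ± 0.16, adjusted p = 6.20e-07). Between the synovial populations it was 1.51-fold higher in the lining (0.60 ± 0.15, adjusted p = 0.0416). That last call was lost in 12 of 20 alternative settings, with values of 0.49 to 0.70 and adjusted p up to 0.153, among them leaving out lining A, lining B, interstitial E, interstitial F or any BMDM library.

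Il13ra1 (ENSMUSG00000017057, chrX:36112110-36171259, plus strand), the IL-13-binding chain, was at 84.7, 85.0 and 131 CPM in lining, 160, 122 and 128 in interstitial and 9.37, 8.14 and 8.48 in BMDM libraries. Lining C lay among the interstitial libraries, and all sorted libraries were far above BMDM. Of the 10 chains it had the largest called difference from BMDM with non-overlapping libraries: it was 11.5-fold higher in lining (3.53 ± 0.21, adjusted p = 1.17e-07) and 15.7-fold higher in interstitial macrophages (3.97 ± 0.22, adjusted p = 5.04e-08). Lining against interstitial gave -0.45 ± 0.19 (adjusted p = 0.227), and without lining C it gave -0.68 (adjusted p = 0.0440).

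Il2rg (ENSMUSG00000031304, chrX:101264378-101268255, minus strand), the signalling chain shared with the receptors for IL-2, IL-7, IL-9, IL-15 and IL-21, was at 12.1, 20.2 and 25.1 CPM in lining, 3.10, 12.99 and 21.4 in interstitial and 36.2, 34.1 and 33.4 in BMDM libraries. The lowest value, in interstitial D, rests on 7 counts, whereas the BMDM values rest on 688 to 838 counts. Interstitial macrophages were 2.65-fold lower than BMDM (-1.41 ± 0.45, adjusted p = 0.0235), and this call was lost without interstitial E, BMDM G or BMDM H (adjusted p up to 0.0714). Lining against BMDM gave -0.84 ± 0.45 (adjusted p = 0.150), and lining against interstitial 0.57 ± 0.46 (adjusted p = 0.556). Lymphocytes also express Il2rg. The 12 T and NK cell markers summed to 20.6 to 55.7 CPM in lining, 50.02 to 64.6 in interstitial and 3.07 to 3.47 in BMDM libraries, with 5 to 10 of the 12 at 0 in each library and Cd3e at 0 in all but lining A. In the sorted libraries this sum was mostly Cd4 (mean 37.8 CPM in lining and 36.8 in interstitial libraries) and Cd2 (2.71 and 21.3). Only these 2 of the 12 markers passed the filter on low counts. The part of lymphocytes in the Il2rg values was not tested.

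Within a library the ratio of chains does not depend on the library scaling, and it was taken per length as log2 with 0.5 added to each count. The length is the summed exon length. Which chain exceeds the other, or whether they are equal, depends on it, while the fold of a ratio between groups does not. Il4ra stood above Il2rg in every sorted library and below it in every BMDM library, with mean log2 ratios of 2.88 ± 0.70 (SD, n = 3) in lining, 3.20 ± 1.56 in interstitial and -0.77 ± 0.11 in BMDM. The mean ratio was 12.5-fold higher in lining and 15.7-fold higher in interstitial macrophages than in BMDM. For Il13ra1 to Il2rg the means were 1.77 ± 0.36, 3.16 ± 1.59 and -2.63 ± 0.06, which are 21.2-fold and 55.5-fold above BMDM. The wide interstitial SDs come with interstitial D, where the log2 ratios to Il2rg were 4.98 and 4.96 and Il2rg had 7 counts. Without interstitial D the log2 difference between interstitial macrophages and BMDM moved from 3.97 to 3.08 for Il4ra to Il2rg and from 5.79 to 4.90 for Il13ra1 to Il2rg, and without interstitial F the latter was 6.41. The small difference of lining minus interstitial in Il4ra to Il2rg also turned, from -0.32 to 0.57 without interstitial D and to 0.0092 without lining C, so the order of the synovial groups in this ratio rests on single libraries.

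The ratio of Il4ra to Il13ra1 separated all 3 groups. It was 1.47, 1.37 and 0.48 on the log2 scale in lining, 0.02, -0.04 and 0.14 in interstitial and 1.82, 2.04 and 1.74 in BMDM libraries. Interstitial macrophages thus held Il4ra and Il13ra1 at nearly equal levels per length, while lining macrophages held 2.09-fold more Il4ra per Il13ra1 than interstitial macrophages (log2 difference 1.07, exact permutation test p = 0.10, two-sided, adjusted p = 0.150 over 24 tests). With 3 libraries against 3 the exact test cannot give a p below 0.10, so none of the 24 ratio tests could pass 0.05.

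**Figure D2:**
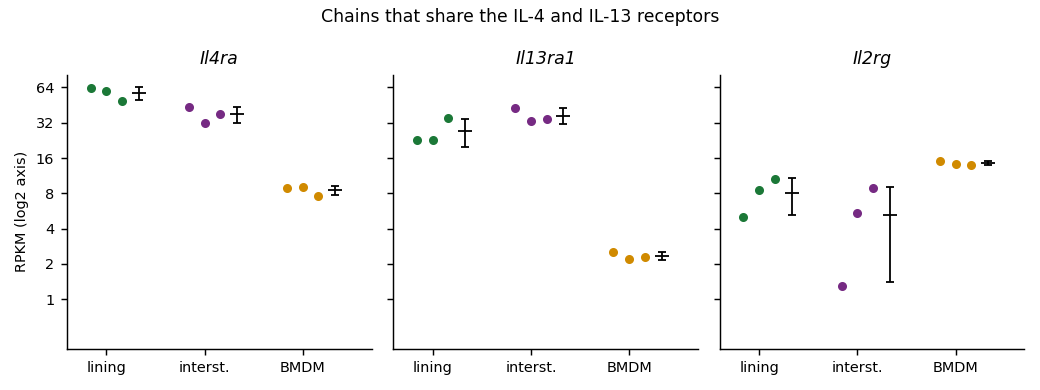
RPKM on a log2 axis of the 3 chains of the IL-4 and IL-13 receptors in each library (points), with the mean and SD of 3 libraries beside them. Il4ra and Il13ra1 are above Il2rg in all sorted libraries, and in BMDM Il2rg, at 14.0 to 15.2 RPKM, is above Il4ra (7.64 to 9.05) and Il13ra1 (2.19 to 2.53).

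The IL-10 receptor chains were both higher in lining macrophages than in either other group, and per length Il10ra exceeded Il10rb in sorted cells but not in BMDM. Il10ra (ENSMUSG00000032089, chr9:45253837-45269149, minus strand), the IL-10-binding chain, was at 512, 536 and 544 CPM in lining, 301, 307 and 339 in interstitial and 99.9, 83.9 and 107 in BMDM libraries. The groups did not overlap in any comparison. It was 1.68-fold higher in lining than in interstitial macrophages (0.75 ± 0.13, adjusted p = 0.00484), 5.48-fold higher in lining than in BMDM (2.45 ± 0.14, adjusted p = 5.68e-08) and 3.26-fold higher in interstitial macrophages than in BMDM (1.70 ± 0.13, adjusted p = 9.24e-07). Of the 4 chains called between lining and interstitial, Il10ra was the only one called in all 20 alternatives, with values of 0.67 to 0.77 and adjusted p up to 0.0270.

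Il10rb (ENSMUSG00000022969, chr16:91406164-91425834, plus strand) encodes the chain shared by the receptors for IL-10, IL-22 and interferon lambda. It was at 248, 221 and 246 CPM in lining, 153, 186 and 132 in interstitial and 146, 157 and 151 in BMDM libraries. The lining libraries were above all others, and the interstitial and BMDM libraries overlapped. Il10rb was 1.52-fold higher in lining than in interstitial macrophages (0.60 ± 0.14, adjusted p = 0.0287) and 1.57-fold higher than in BMDM (0.65 ± 0.14, adjusted p = 0.00276). Interstitial against BMDM gave 0.05 ± 0.14 (adjusted p = 0.783), and this value turned negative without interstitial E (-0.10) and with no filter on low counts (-0.0597). The call against interstitial macrophages was lost in 11 of 20 alternatives, with values of 0.45 to 0.75 and adjusted p up to 0.114, among them leaving out any single library other than interstitial E.

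Per length, Il10ra exceeded Il10rb in all 6 sorted libraries, by log2 ratios of 1.17, 1.40 and 1.27 in lining and 1.09, 0.85 and 1.49 in interstitial macrophages. In BMDM it was below Il10rb, at -0.42, -0.78 and -0.38. The mean ratio was 3.50-fold higher in lining and 3.18-fold higher in interstitial macrophages than in BMDM, whereas lining and interstitial macrophages overlapped and differed by 0.14 (exact permutation test p = 0.60, adjusted p = 0.720), a difference that was -0.012 without interstitial E.

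Of the IL-6 receptor chains, the shared signalling chain differed between the synovial populations and the ligand-binding chain did not pass the test. Il6st (ENSMUSG00000021756, chr13:112464070-112510086, plus strand) encodes gp130, the signalling chain for IL-6, IL-11, LIF, oncostatin M and related cytokines. It was at 209, 197 and 186 CPM in lining, 310, 283 and 247 in interstitial and 88.3, 92.3 and 83.3 in BMDM libraries, with no overlap between groups. It was 1.42-fold lower in lining than in interstitial macrophages (-0.51 ± 0.13, adjusted p = 0.0376), 2.24-fold higher in lining than in BMDM (1.16 ± 0.13, adjusted p = 1.74e-05) and 3.18-fold higher in interstitial macrophages than in BMDM (1.67 ± 0.13, adjusted p = 9.02e-07). The call between lining and interstitial was lost in 12 of 20 alternatives (values of -0.62 to -0.45, adjusted p up to 0.161), among them leaving out any single library other than interstitial F.

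Il6ra (ENSMUSG00000027947, chr3:89864059-89913196, minus strand), the IL-6-binding chain, was at 292, 279 and 248 CPM in lining, 309, 313 and 275 in interstitial and 107, 108 and 108 in BMDM libraries. The synovial groups overlapped, and lining against interstitial gave -0.13 ± 0.12 (adjusted p = 0.608). It was 2.54-fold higher in lining (1.34 ± 0.12, adjusted p = 3.44e-06) and 2.78-fold higher in interstitial macrophages (1.48 ± 0.12, adjusted p = 1.52e-06) than in BMDM.

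The log2 ratio of Il6ra to Il6st per length was 0.84, 0.87 and 0.77 in lining, 0.35, 0.51 and 0.52 in interstitial and 0.63, 0.58 and 0.74 in BMDM libraries. The 3 groups did not overlap, although the differences were small: the ratio was 1.29-fold higher in lining than in interstitial macrophages and 1.13-fold higher in lining than in BMDM (exact permutation test p = 0.10 and adjusted p = 0.150 for each). With counts thinned to the shallowest library, the log2 difference between lining and BMDM moved from 0.18 to 0.09.

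Of the 8 chain ratios computed, 2 did not overlap between lining and interstitial macrophages (Il4ra to Il13ra1 and Il6ra to Il6st), and 7 did not overlap in each comparison with BMDM. Without interstitial F, the first count was 5, but leaving out a library can only keep or raise such a count. No share over ratios of other gene pairs was computed, so these counts have no background of their own. Of single tested genes, 18.6% did not overlap between lining and interstitial macrophages. Against BMDM that share was 63.1% for lining and 62.2% for interstitial macrophages.

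**Figure D3:**
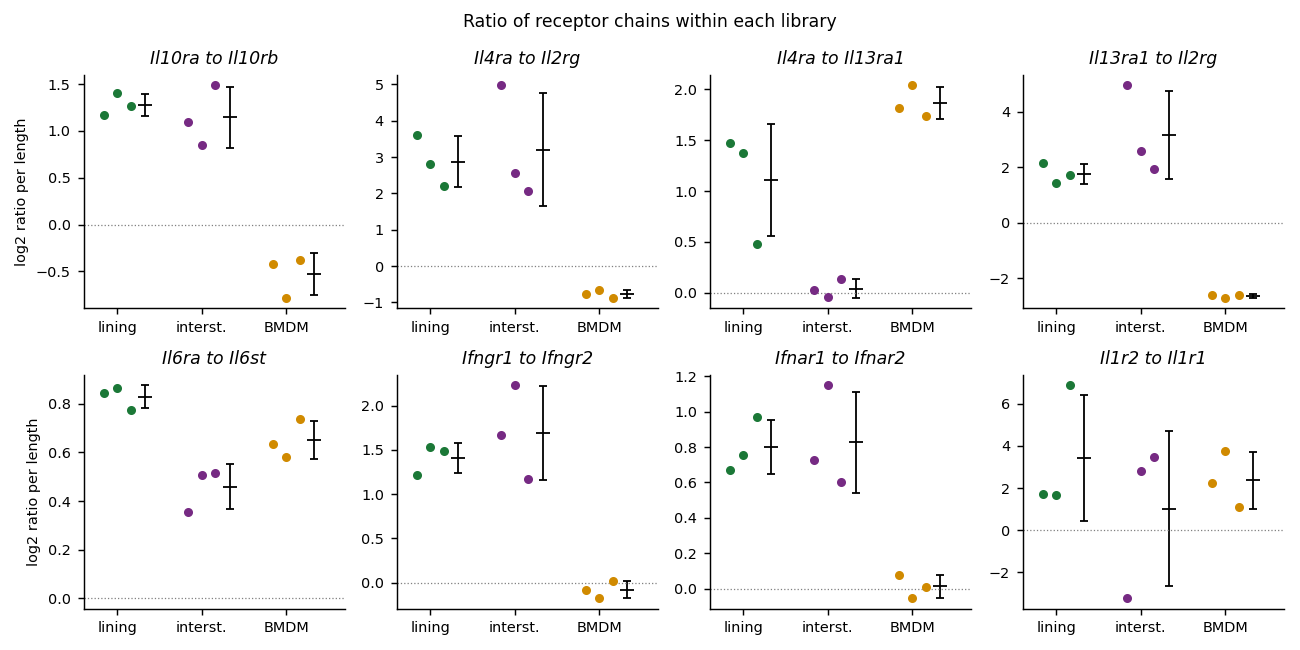
Log2 ratio of receptor chains per length within each library (points; 0.5 added to each count), with the mean and SD of 3 libraries; the dotted line marks equal levels. Il10ra to Il10rb, Il4ra to Il2rg and Il13ra1 to Il2rg lie above the line in every sorted library and below it in every BMDM library, and Il4ra to Il13ra1 is lowest in interstitial macrophages.

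The interferon receptor chains were higher in both synovial populations than in BMDM. Ifngr1 (ENSMUSG00000020009, chr10:19591949-19610229, plus strand), the ligand-binding chain for interferon gamma, was at 316, 299 and 337 CPM in lining, 265, 240 and 207 in interstitial and 91.3, 88.0 and 94.2 in BMDM libraries. No groups overlapped. It was 3.48-fold higher in lining (1.80 ± 0.13, adjusted p = 5.49e-07) and 2.60-fold higher in interstitial macrophages (1.38 ± 0.13, adjusted p = 4.42e-06) than in BMDM. Lining against interstitial gave 0.42 ± 0.13 and did not pass the test (adjusted p = 0.0836), although DESeq2 and limma-voom both called it (adjusted p from 0.0311).

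Ifnar1 (ENSMUSG00000022967, chr16:91485238-91507441, plus strand), a chain of the type I interferon receptor, was at 243, 243 and 265 CPM in lining, 240, 203 and 175 in interstitial and 137, 136 and 126 in BMDM libraries. The lining libraries were above the interstitial libraries by a narrow margin, and both were above BMDM. It was 1.88-fold higher in lining (0.91 ± 0.14, adjusted p = 0.000203) and 1.55-fold higher in interstitial macrophages (0.63 ± 0.14, adjusted p = 0.00256) than in BMDM. Lining against interstitial gave 0.28 ± 0.14 (adjusted p = 0.284).

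Neither partner chain of these receptors passed edgeR's test in any comparison. Among the other tested chains of the type II cytokine receptor family (Ifngr2, Ifnar2 and Il20rb), DESeq2 and limma-voom each called 1 higher in lining than in interstitial macrophages. From the same chains limma-voom called 1 lower in interstitial macrophages than in BMDM. Ifngr2, the signalling partner of Ifngr1, was at 140 ± 18.9, 87.8 ± 24.9 and 112 ± 3.53 CPM in lining, interstitial and BMDM libraries (SD, n = 3), with log2 fold changes of 0.67 ± 0.20 between the synovial populations (lining against interstitial, adjusted p = 0.0786) and 0.31 ± 0.20 and -0.36 ± 0.20 for lining and interstitial macrophages against BMDM (adjusted p = 0.226 and 0.160). Ifnar2, the partner of Ifnar1, was at 81.4 ± 4.86, 66.3 ± 15.1 and 74.7 ± 4.48 CPM, with 0.31 ± 0.18, 0.13 ± 0.17 and -0.18 ± 0.17 in the same order (adjusted p = 0.377, 0.592 and 0.416). Against BMDM these values were smaller than those of Ifngr1 and Ifnar1, whereas between the synovial populations they were larger. The log2 ratio per length of Ifngr1 to Ifngr2 was 1.41 ± 0.17 in lining, 1.69 ± 0.53 in interstitial and -0.08 ± 0.09 in BMDM libraries, and that of Ifnar1 to Ifnar2 was 0.80 ± 0.15, 0.83 ± 0.28 and 0.01 ± 0.07. In BMDM the partner chains were thus near equal levels, and in sorted cells the chains Ifngr1 and Ifnar1 exceeded their partners in every library.

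Il10rb and Ifnar1 are neighbours on chromosome 16. Ifnar2 (91372783 to 91405589), Il10rb (91406164 to 91425834), Ifnar1 (91485238 to 91507441) and Ifngr2 (91547072 to 91565169) follow each other on the plus strand. Between the synovial populations all had positive log2 fold changes (lining against interstitial, given with each gene), and Il10rb was the one called. On chromosome 7, Il21r (125603429 to 125633570) is the next of the listed receptor genes after Il4ra. It was at 164, 145 and 83.6 CPM in lining, 35.4, 22.8 and 12.1 in interstitial and 25.2, 26.6 and 23.0 in BMDM libraries.

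Il1r2 (ENSMUSG00000026073, chr1:40074079-40125231, plus strand), the decoy receptor that binds IL-1 without signalling, was the least even of the 10 chains. It was at 0, 4.003 and 6.37 CPM in lining, 0, 15.6 and 34.5 in interstitial and 0.99, 1.09 and 0.55 in BMDM libraries. The zeros were in lining A and interstitial D, the shallowest libraries, where 3 counts correspond to 1.45 and 1.33 CPM, so a level as low as that of BMDM was not detectable there. Interstitial macrophages were above BMDM by 4.26 ± 1.22 on the log2 scale (adjusted p = 0.0158), although interstitial D overlapped BMDM. Without interstitial F, the library with the most Il1r2, the value was 3.22 (adjusted p = 0.0529), and limma-voom gave 3.42 (adjusted p = 0.0442). This call was lost without interstitial F, BMDM G, BMDM H or BMDM I and with no filter on low counts (adjusted p up to 0.0829). Lining against interstitial gave -2.24 ± 1.16 (adjusted p = 0.334) and lining against BMDM 2.03 ± 1.20 (adjusted p = 0.199). With neither lining A nor interstitial D, lining against interstitial passed the test (adjusted p = 0.0492).

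Neutrophils also express Il1r2, and markers of other cells varied between the sorted libraries as well. The 12 neutrophil markers summed to 22.3, 35.4 and 22.9 CPM in lining, 26.1, 98.4 and 89.4 in interstitial and 62.2, 75.1 and 62.7 in BMDM libraries. Of the 12, 11 were at 0 in lining A and in interstitial D, the shallowest libraries, where the sum was the remaining marker Csf3r alone. In lining C, the lining library with the most Il1r2, 10 of the 12 were at 0. Ly6g was at 0 in every library other than interstitial F and BMDM H, with 1 count each. The 8 dendritic cell markers summed to 19.4 to 59.2 CPM in lining, 106 to 249.2 in interstitial and 4.45 to 6.65 in BMDM libraries. The highest sum was in interstitial D, where Il1r2 was at 0, but the markers did not all vary alike. Ccr7 had no counts in interstitial D or lining C and a mean of 10.7 ± 11.6 CPM over the interstitial libraries (SD, n = 3). The chemokine gene Ccl22 was at 0, 4.86 and 6.37 CPM in lining, 0, 60.4 and 164 in interstitial and 0.60 to 0.79 in BMDM libraries. Ccl22 was among the genes most similar to Il1r2 in log2 CPM over the 9 libraries (Pearson r = 0.980), so its values are a description only. The part of other cells in the Il1r2 values was not tested.

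Il1r1, which encodes the signalling IL-1 receptor, was also scarce, at 0, 4.19 and 0 CPM in lining, 6.64, 7.36 and 10.2 in interstitial and 0.69, 0.25 and 0.88 in BMDM libraries. It was higher in interstitial macrophages than in BMDM (3.71 ± 1.09, adjusted p = 0.0150). The log2 ratio of Il1r2 to Il1r1 ranged from -3.22 in interstitial D to 6.87 in lining C and overlapped between all groups. Their ligand gene Il1b was at 90.05, 199 and 418 CPM in lining, 15.5, 159 and 385 in interstitial and 0.22, 0.15 and 0.18 in BMDM libraries, and within the sorted groups it was lowest in the libraries without Il1r2 counts.

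**Figure D4:**
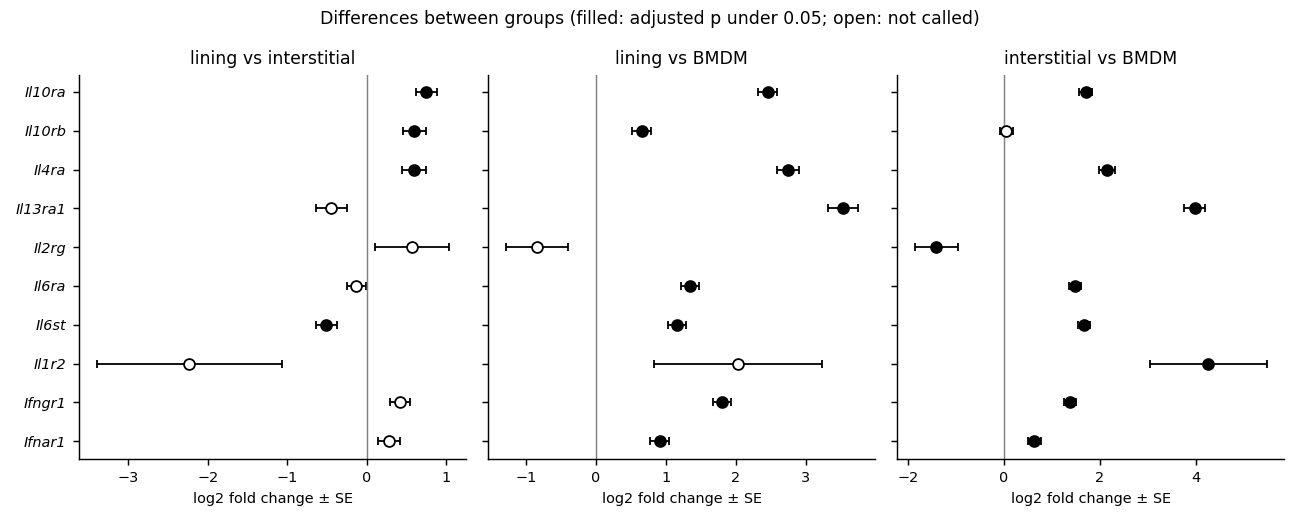
Log2 fold change with its standard error for each chain in the 3 comparisons, from edgeR's quasi-likelihood fit; filled points had an adjusted p under 0.05, open points did not, and the horizontal scale differs between the panels. Between lining and interstitial macrophages the filled points of Il10ra, Il10rb and Il4ra lie to the right of 0 and that of Il6st to the left. Of the open points there, Il2rg, Ifngr1 and Ifnar1 lie to the right and Il13ra1, Il6ra and Il1r2 to the left. Against BMDM Il2rg is the chain to the left of 0.

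Compared per length, Il10ra was the most abundant of the 10 transcripts in lining macrophages at 152 RPKM (97.7% of tested genes were lower), followed by Ifngr1 at 112. Il10rb (62.6) and Il4ra (57.3) came next and overlapped, and Ifnar1 (42.6) followed without overlap. Il6ra (31.6) and Il13ra1 (27.0) overlapped. Il6st (17.8), Il2rg (8.02) and Il1r2 (1.81) ended the order.

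In interstitial macrophages Il10ra (90.2 RPKM) and Ifngr1 (83.4) led and overlapped, and each of Il10rb (41.2), Il4ra (37.9), Il13ra1 (36.8), Ifnar1 (35.0) and Il6ra (34.6) overlapped its neighbour in that order. Il6st stood at 25.2, and Il1r2 (8.76) and Il2rg (5.23) came last and overlapped. In BMDM the order differed: Il10rb led at 39.8 RPKM, before Ifngr1 (32.03), Il10ra (27.7), Ifnar1 (22.6), Il2rg (14.5) and Il6ra (12.4), none of which overlapped. Il4ra (8.54) and Il6st (7.93) overlapped, and Il13ra1 (2.33) and Il1r2 (0.461) were lowest. Il13ra1 moved from above 84.5% of tested genes in lining and 89.5% in interstitial macrophages to above 30.9% in BMDM, and Il2rg moved from 57.9% and 46.4% to 72.2%.

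For the 4 chains called between the synovial populations, the genes with the most similar log2 CPM over the 9 libraries were taken from the 8975 tested genes with a mean CPM of at least 10. For Il10ra these were Sparc (Pearson r = 0.993), Spns2 (0.992) and Atraid (0.991). For Il10rb they were Wdr41 (0.977), Tgfbr1 (0.969) and Lpcat2 (0.963), for Il4ra Ltc4s (0.996), 2610203C22Rik (0.995) and Sulf2 (0.995), and for Il6st Tmod1 (0.996), Jup (0.995) and Pf4 (0.995). The points share the split between sorted and cultured libraries, which alone gives high values, so these are a description only.

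Among the other chains of the type I cytokine receptor family, 13 of 24 genes were tested, and 1 was higher and 1 lower in lining than in interstitial macrophages. The higher gene was Il21r, which encodes the IL-21-binding partner of the common gamma chain (131 ± 41.9 against 23.4 ± 11.7 CPM, 2.52 ± 0.34, adjusted p = 0.00101). The lower gene was Lifr, which encodes the LIF-binding partner of gp130 (43.9 ± 6.17 against 215 ± 97.2 CPM, -2.28 ± 0.30, adjusted p = 0.000770), so the partner chain Lifr and the shared chain Il6st were both lower in the lining. Lifr was at 15.7 ± 1.90 CPM in BMDM. Against BMDM, 6 of these 13 chains were higher and 2 lower in lining, and 7 higher and 1 lower in interstitial macrophages. The list medians for these 3 comparisons, in the same order, were -0.64, 0.82 and 1.06. For this list and those that follow, the background is the share of all tested genes. Against BMDM it was 23.1% higher and 20.5% lower in lining, and 23.4% and 21.3% in interstitial macrophages. Between lining and interstitial macrophages it was 3.74% higher and 2.05% lower.

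Of the other type II chains, 3 of 7 were tested (Ifngr2, Ifnar2 and Il20rb). None was called between the synovial populations by edgeR, although 1 was higher before adjustment (p under 0.05) as well as in limma-voom and DESeq2, and Il20rb, a chain of the IL-20 and IL-24 receptors, was higher in each synovial population than in BMDM (2.44 ± 0.61 in lining, 2.33 ± 0.60 in interstitial macrophages). All 9 listed genes of the IL-1 receptor family, which include the antagonists Il1rn and Il18bp, were tested. Of these, edgeR called none between the synovial populations, although 1 was lower before adjustment (p under 0.05) as well as in limma-voom and DESeq2. Against BMDM 3 were higher in lining and 4 in interstitial macrophages, with none lower. The IL-36 receptor gene Il1rl2 was at 25.0 ± 9.05, 38.4 ± 20.7 and 2.45 ± 0.324 CPM in lining, interstitial and BMDM libraries.

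Transcripts of the ligands themselves were mostly rare or below the filter, and 10 of 24 ligand genes were tested. No ligand gene was called between the synovial populations by edgeR. Before adjustment 3 had a p under 0.05, all lower in lining, and limma-voom and DESeq2 each called 1 as lower. Against BMDM 6 were higher and 1 (Ebi3) lower in lining, and 9 were higher and none lower in interstitial macrophages. Il1b, the ligand that Il1r2 captures, had the largest difference (10.24 ± 1.62 on the log2 scale in lining, adjusted p = 0.00243), with only 12 counts over the 3 BMDM libraries. Il10 itself was at 2.0 ± 1.65, 4.98 ± 3.40 and 0.608 ± 0.181 CPM in lining, interstitial and BMDM libraries.

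Downstream of the receptors, all 12 listed Janus kinase, STAT and adaptor genes were tested. By edgeR none was called between the synovial populations, while 2 were lower before adjustment (p under 0.05), 1 in DESeq2 and none in limma-voom. In lining macrophages 6 were higher than in BMDM (Jak1, Jak2, Stat3, Stat5a, Stat5b and Irs2) and 3 lower (Stat2, Stat4 and Irf9). In interstitial macrophages Jak3 and Tyk2 joined the higher genes, for 8 higher and 3 lower. Stat3, the transcription factor used by the IL-10 and IL-6 receptors, was at 301 to 335, 267 to 316 and 120 to 132 CPM in lining, interstitial and BMDM libraries. Stat6, used by the IL-4 and IL-13 receptors, was at 359 to 396, 309 to 334 and 324 to 340 CPM and was called in no comparison (adjusted p = 0.343, 0.196 and 0.897).

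Of 19 inhibitors of JAK-STAT signalling, 2 were higher and 4 lower in lining than in interstitial macrophages before adjustment (p under 0.05). DESeq2 called 1 higher and 2 lower, and limma-voom called 2 higher and none lower. By edgeR 1 was called, as higher. This was Ptpn6, which encodes the phosphatase SHP-1 (380 ± 55.2 against 260 ± 24.9 CPM, 0.55 ± 0.14, adjusted p = 0.0396), and the call was lost in 11 of 20 alternatives, among them leaving out lining A, lining B, interstitial D, interstitial F or any BMDM library. Against BMDM 4 were higher and 4 lower in lining, and 6 higher and 3 lower in interstitial macrophages. The lining counts are near the shares of all tested genes (23.1% higher and 20.5% lower). For interstitial macrophages those shares were 23.4% and 21.3%. Socs3, which encodes the inhibitor that binds gp130, showed the largest difference. It was at 239, 343 and 329 CPM in lining, 345, 411 and 461 in interstitial and 1.86, 2.08 and 1.80 in BMDM libraries (7.31 ± 0.22 in lining and 7.72 ± 0.22 in interstitial macrophages against BMDM, adjusted p = 1.08e-09 and 8.13e-10). The interferon-induced Usp18, which acts at the type I interferon receptor, was lower in lining than in BMDM (9.18 against 73.3 CPM, -2.80 ± 0.59, adjusted p = 0.00344).

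Target genes were listed by the receptor that is known to induce them in macrophages, with some genes in more than 1 list. Of 16 tested IL-4 and IL-13 targets acting through STAT6, edgeR called none higher and 4 lower in lining than in interstitial macrophages. The lower genes were Mrc1, Clec10a, Ccl24 and Cd209a, and the list median was -2.57. Before adjustment (p under 0.05) 1 target was higher and 7 lower, and DESeq2 and limma-voom each called 1 higher and 6 lower. Il4ra itself was higher in the lining. Cd209a (11.6 ± 10.4 against 66.2 ± 43.4 CPM, -2.49 ± 0.62, adjusted p = 0.0442) also marks dendritic cells, has closely related copies between which reads can be split, and lost its call in 11 of 20 alternatives, among them leaving out lining A, lining B, interstitial D, interstitial E or any BMDM library. The call of Mrc1 was lost without lining A or lining B. The dendritic cell marker sums, given with Il1r2, were also higher in every interstitial than in every lining library. These sums include Cd209a itself, so they are not separate from its difference. The 7 monocyte markers summed to 1649 to 2012 CPM in lining and 3403 to 9117 in interstitial libraries, but this sum was mostly F13a1 (mean 1320 against 5677 CPM). Of the other monocyte markers Vcan was higher in lining (mean 320 against 14.9 CPM, 4.32 ± 0.36, adjusted p = 5.07e-05), and the list had 1 gene higher, 1 lower and a median of 0.13. The part of other cells in the target gene differences was not tested. Against BMDM 7 of the 16 were higher in lining and 12 in interstitial macrophages, with none lower (list medians 3.99 and 6.92).

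Of 15 IL-10 and IL-6 targets acting through STAT3, 2 (Fcgr1 and Il4ra, itself a receptor chain) were higher and 2 (Cd163 and Hmox1) lower in lining than in interstitial macrophages, with a median of -0.58. Against BMDM 6 were higher and 1 lower in each synovial population. The haemoglobin scavenger receptor gene Cd163 was at 416 ± 125, 2130 ± 503 and 3.08 ± 0.181 CPM in lining, interstitial and BMDM libraries.

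Of 12 tested interferon gamma targets, 2 (Fcgr1 and Irf8) were higher and 1 (Gbp3) lower in lining than in interstitial macrophages, with a median of -0.07. Fcgr1, an Fc receptor gene, lost its call without lining A, lining B, lining C or BMDM I. Against BMDM 6 were higher and none lower in lining, and 7 were higher and 2 lower in interstitial macrophages. The guanylate-binding protein gene Gbp7 was at 24.2 ± 9.79, 47.8 ± 4.44 and 6.27 ± 0.557 CPM.

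The type I interferon targets acting through ISGF3 stood opposite to the receptor chain Ifnar1. Of 20 listed targets, 16 were lower and none higher in lining macrophages than in BMDM (median -2.22), and 13 were lower and none higher in interstitial macrophages (median -2.04), while Ifnar1 was higher in both. The RNA-sensing gene Oas3 was at 3.54 ± 2.34, 5.92 ± 2.04 and 208 ± 11.2 CPM in lining, interstitial and BMDM libraries (-5.63 ± 0.34 and -5.09 ± 0.32, adjusted p = 1.15e-07 and 1.74e-07). Ifi44 had 1 count over the lining libraries and 806 over BMDM, a ratio of 189-fold (counting interval 33.8 to 7466, 95%, which covers counting error only). None of the 20 was called between lining and interstitial macrophages by edgeR, while 2 were lower before adjustment (p under 0.05), 2 in DESeq2 and none in limma-voom, and the median was -0.01.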

How the data were processed

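Poly(A) RNA was sequenced from 500 ng RNA per library as single 101 bp reads from a stranded kit, per the labels' protocols. The authors deposited unnormalised read counts per gene, made with featureCounts 1.6.1 on Ensembl GRCm38 exons in reverse-stranded mode, per the file headers. STAR 2.5.4a, cutadapt 1.15 and bcl2fastq 2.17.1.14 are listed in the submitters' processing notes without settings. Gene symbols were matched for 53274 of 53465 identifiers.

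In R 4.3.3, edgeR 4.0.16 fitted all 9 libraries together, with 1 mean per group (filterByExpr with a minimum count of 10, TMM factors, robust quasi-likelihood fit, 6 residual degrees of freedom). Each contrast's p-values were adjusted by Benjamini-Hochberg over 12610 genes, with a threshold of 0.05 for a call. The fit was tested on simulated data. SEs come from the F statistic. Chain ratios used exact permutation tests adjusted over 24 tests. Alternatives were DESeq2 1.42.0, limma-voom 3.58.1, other scalings, filters and sample sets, a non-robust fit, thinned counts and leaving out each library. The fit without both shallowest sorted libraries was added after seeing the data.

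The 10 chains, the gene lists and the rule for named genes were chosen with earlier results of these data known. By that rule the text names all 10 chains, their partner chains Ifngr2, Ifnar2 and Il1r1, the listed genes called between the synovial populations, and genes among the largest called differences from BMDM. Stat3, Stat6, Il10, Ebi3, Ccl22, Ccr7, Csf3r, F13a1, Vcan, Cd2, Cd4, Ighm and the other called Janus kinases and STATs were added after their values were seen. Of the 17 listed STAT6 targets, Ear11 was not matched by symbol and is not used here, and 1 gene of the signalling lists is not reported here. Counts have no molecular identifiers, so a floor of 3 counts and any interval cover counting error only.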

Additional observations from a re-analysis of the deposited data

How the results depend on the processing

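Each of the 30 fold changes of the receptor chains was recomputed under 20 alternatives, giving 600 values, of which 545 kept their direction and their side of the threshold, 43 lost the threshold, 10 gained it and 2 changed sign. The sign changes were those of Il10rb between interstitial macrophages and BMDM, a difference that was never called: -0.0597 with no filter and -0.10 without interstitial E, with a range of -0.10 to 0.15 when each library was left out. The number of chains called between lining and interstitial macrophages was 4, and it was 2 with plain library totals (Il10ra and Il6st), 1 with only the 2 groups compared (Il10ra), 2 with neither lining A nor interstitial D (Il10ra and Il1r2) and 1 to 3 when each library was left out. The cause was not tested, except that the fits on fewer libraries have fewer residual degrees of freedom by construction. Over all tested genes, 730 were called in this comparison, 1298 by DESeq2, 366 with only the 2 groups compared, and 396 to 888 when each library was left out. The count of chain ratios without overlap between lining and interstitial macrophages ranged from 2 to 5 when each library was left out. Leaving out a library can remove an overlap but cannot make one, so this count could not fall and the range is no check of it. Plain library totals moved the median of all genes to -0.11 for lining against BMDM. Calls against BMDM for the 8 chains other than Il2rg and Il1r2 held in all 20 alternatives, apart from Il10rb in interstitial macrophages, which was not called in any. Il2rg was called for lining against BMDM in 4 alternatives and Il1r2 in 2. No paired analysis was possible because no replicate letter is shared between groups. Depth limited Il1r2, Il2rg and the ligand genes, with 3 counts equal to 1.45 CPM in lining A and 0.130 in BMDM G.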
